A study of Oryctolagus cuniculus with 12 samples.

Results

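The genes described here are 8 genes of T cells and of the thymus, the organ in which T cells mature: CD247, CD3E, CD5, CD4, CD28, CD1A, CD1B and RAG2. They were measured in the thoracic aorta of rabbits with an experimental aortic coarctation (CoA), of rabbits in which the coarctation had been relieved, and of rabbits without surgery. The members were all probes whose RefSeq accession belongs to one of these rabbit symbols, which gave 19 of the 43603 different probes on the array and 8 of the 1264 gene symbols that have a probe. A probe was counted as detected on an array when its spots were flagged as positive and well above background, and the 27287 probes with detection on 8 or more of 12 arrays entered the tests. Of the 19 member probes, 8 passed this filter, and they represent 4 of the 8 genes (CD5, CD1A, CD1B and RAG2). No probe of CD247, CD3E, CD4 or CD28 passed it, so their values come from the same model fitted over all 43603 probes. Each gene is represented by its probe of highest mean signal: A_04_P000868 for CD247, A_04_P002366 for CD3E, A_04_P002741 for CD5, A_04_P002066 for CD4, A_04_P002752 for CD28, A_04_P003176 for CD1A, A_04_P002279 for CD1B and A_04_P003602 for RAG2. CD247 was also named by the study from these same arrays, so its direction is not independent of that choice. The study listed CD247 as lower in both operated groups, at a fold limit above the 2-fold limit used here. Its filter also required detection in 8 of 12 samples, which no CD247 probe met here. The study's detection flags or probes may thus differ from those used here.

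All 12 samples came from male New Zealand white rabbits of 32 weeks, with 1 array per sample and 4 samples per group. The labels number the samples as replicates and do not say that each came from a separate rabbit, so p-values measure only the spread between these samples, which may be technical. In the CoA group, a silk suture, which is permanent, was tied around the aorta at about 10 weeks of age to impose a pressure gradient of 20 mmHg. In the Corrected group the same was done with Vicryl, a suture that degrades, so that the aorta widened again with some narrowing left. The Control group had no surgery and there was no sham group, so the effects of the operation and of the narrowing cannot be told apart against Control. Each sample was total RNA of a 4 mm aortic ring from the region between the coarctation site and the left subclavian artery. In the CoA group this region is exposed to the raised pressure. For the Corrected group, the study estimates that the raised pressure lasted some weeks and had been back to normal for months before sampling.

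T cells recognise antigen through the T cell receptor, whose signal is passed into the cell by the CD3 chains and by the zeta chain, the product of CD247. CD4 and CD28 are a co-receptor and a co-stimulatory receptor that act beside it, and CD5 is a surface receptor that dampens its signal and is also carried by rabbit B cells. CD1A and CD1B encode proteins that present lipid antigens, found on dendritic cells and on thymocytes, the developing T cells of the thymus. RAG2 encodes a part of the recombinase that assembles antigen receptor genes in developing lymphocytes. An artery wall holds few lymphocytes, most of them in the outer layer.

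Values are log2 signals after quantile normalization, and they are compared only within a probe. The study left out 1 Corrected sample for its different intensity distribution. The labels do not give the rabbit number by which the study names it, and Corrected replicate 3 was taken to be that sample. It is left out here too (11 arrays used). Its value is given for each of the 8 genes, but not for the genes of the other lists. Spots well above background made up 69.7% to 77.7% of the Control arrays, 55.8% to 69.7% of the CoA arrays, 61.8% to 68.5% of the Corrected arrays used and 45.6% of Corrected replicate 3. The smooth muscle genes CALD1, ACTA2 and MYH11 were well above background on all 12 arrays, with log2 signals of 12.46 or more on the 11 arrays used, as the labelled tissue requires. Control replicates 3 and 4 were the most similar pair of arrays (SD of the log2 difference over probes 0.144, against 0.284 for the next pair). They were kept as 2 Control samples, and the labels do not say whether they are 2 rabbits. If they were not, n = 4, the SD and the permutation p-values would overstate the number of independent Control samples, so the calls with both counted as 1 sample are also given. The median log2 fold change over all tested probes was 0.06 in CoA vs Control and 0.03 in Corrected vs Control. It was 0.22 and 0.13 when arrays were scaled to their 75th percentile, and the fold changes of CD247, CD3E and CD5 given below kept their sign under that scaling.

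CD247 and CD3E, the genes of the receptor's signalling chains, were brightest in Control. The log2 signal of CD247 was 7.13, 5.08, 6.25 and 6.26 on Control replicates 1 to 4, 2.91, 3.84, 5.34 and 3.88 on CoA replicates 1 to 4, and 5.06, 3.29 and 2.83 on Corrected replicates 1, 2 and 4. All 4 Control arrays were well above background, against 2 of 4 CoA arrays (replicates 2 and 3) and 1 of 3 Corrected arrays (replicate 1). CoA replicate 3 lay above Control replicate 2, so these groups overlapped, while the Corrected arrays lay below all Control arrays, the closest by a margin of only 0.02 on the log2 scale. Group means with their SD were 6.18 ± 0.84 for Control (n = 4), 3.99 ± 1.01 for CoA (n = 4) and 3.73 ± 1.18 for Corrected (n = 3). For CoA vs Control, the log2 fold change was -2.19 (standard error 0.64, unadjusted p = 0.00648 and adjusted p = 0.235 in limma, two-sided exact permutation p = 0.057). For Corrected vs Control, it was -2.45 (standard error 0.69, unadjusted p = 0.00519 and adjusted p = 0.400 in limma, exact permutation p = 0.057).

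The array carries 5 probes for CD247, and they gave nearly the same profile. Their log2 fold changes lay between -2.92 and -2.19 in CoA vs Control, and between -2.95 and -2.18 in Corrected vs Control. The 5 probes lay closest together on the 4 Control arrays and on CoA replicate 3, the arrays where the gene was brightest, and on CoA replicate 2 and Corrected replicate 4 they spread furthest among the arrays used. For 3 of the 5 probes, all Corrected arrays lay below all Control arrays. The log2 signal of the brightest probe on Corrected replicate 3 was 4.39, not well above background, and with this array the log2 fold change of Corrected vs Control was -2.29.

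CD3E, which encodes the epsilon chain of CD3 and has 1 probe, followed CD247. Its log2 signal was 6.84, 4.86, 5.50 and 5.78 in Control, 2.43, 2.10, 5.35 and 3.26 in CoA, and 4.35, 2.07 and 1.21 in Corrected. All 4 Control arrays were well above background, and elsewhere only CoA replicate 3 and Corrected replicate 1 were, the arrays on which CD247 was highest within those groups. The signal on Corrected replicate 4 was close to the floor of 1.17, the lowest value on the normalized scale. For CoA vs Control, the log2 fold change was -2.46 (standard error 0.83, unadjusted p = 0.0143 and adjusted p = 0.264 in limma, exact permutation p = 0.057), with CoA replicate 3 inside the Control range. For Corrected vs Control it was -3.20 (standard error 0.90, unadjusted p = 0.00506 and adjusted p = 0.400 in limma), a 9.19-fold lower signal, and the groups did not overlap (exact permutation p = 0.029, the smallest that 4 against 3 arrays allow). Corrected replicate 3 was at 1.94, and with it the log2 fold change of Corrected vs Control was -3.35.

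**Figure D1:**
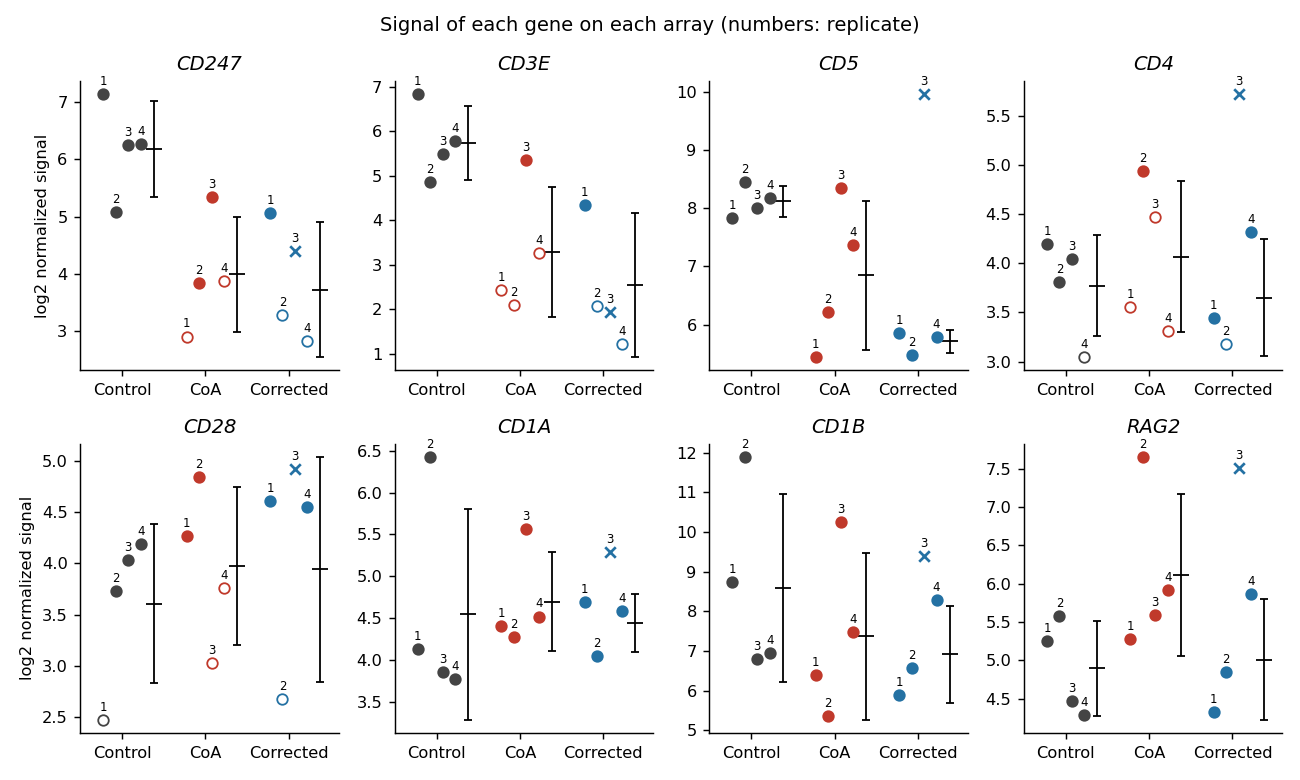
Log2 normalized signal (vertical axes) of the 8 genes, each by its brightest probe, on every array of the Control, CoA and Corrected groups. Filled circles are arrays on which the probe was well above background, open circles those on which it was not, crosses are Corrected replicate 3, which entered no mean, and bars are the mean ± SD of the arrays used; CD247 and CD3E were well above background on all 4 Control arrays and on at most 2 arrays of any other group.

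Since CD247 and CD3E were near background on most CoA and Corrected arrays, the size of these fold changes depends on how background was treated. After normexp background correction with an offset, the log2 fold changes were -0.74 and -0.80 for CD247 and -0.65 and -0.77 for CD3E, in CoA and Corrected vs Control respectively, under the 2-fold limit. Their unadjusted p-values in limma were 0.00625 and 0.00651 for CD247 and 0.0136 and 0.00818 for CD3E, with adjusted p-values of 0.267 or more. An offset shrinks the fold changes of dim probes by construction. Calls over all tested probes in CoA vs Control fell from 2405 to 1020 with it. In bulk tissue, fewer T cells and less RNA per T cell cannot be told apart.

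CD5 was lower in both operated groups and, unlike the receptor chains, was well above background on all 12 arrays. Its log2 signal was 7.84, 8.46, 8.01 and 8.17 in Control, 5.44, 6.22, 8.36 and 7.38 in CoA, and 5.86, 5.47 and 5.79 in Corrected. The Control arrays lay within 0.62 of each other, CoA replicate 3 was inside their range, and the 3 Corrected arrays lay below all of them. Group means with their SD were 8.12 ± 0.26 for Control (n = 4), 6.85 ± 1.28 for CoA (n = 4) and 5.71 ± 0.21 for Corrected (n = 3). CD5 was 5.32-fold lower in Corrected vs Control (log2 fold change -2.41, standard error 0.56, unadjusted p = 0.00128 and adjusted p = 0.338 in limma, exact permutation p = 0.029). It was 2.41-fold lower in CoA vs Control (log2 fold change -1.27, standard error 0.52, unadjusted p = 0.0327 and adjusted p = 0.321 in limma, exact permutation p = 0.114). On Corrected replicate 3, CD5 had the highest normalized signal of all arrays, 9.96, although before normalization it was below all Control arrays. With that array included the log2 fold change of Corrected vs Control was -1.35 and no longer passed (unadjusted p = 0.167 in limma). With the same 12 arrays, CoA vs Control did not pass either (unadjusted p = 0.190 in limma), and it also failed without any one of Control replicates 2, 3 and 4 and CoA replicates 1 and 2, with log2 fold changes of -1.77 to -0.80 over the arrays left out.

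CD4 and CD28 were close to background in all groups. The log2 signal of CD4, the co-receptor of helper T cells, was 4.19, 3.81, 4.04 and 3.05 in Control, 3.55, 4.93, 4.47 and 3.31 in CoA, and 3.45, 3.18 and 4.32 in Corrected. It was well above background on 3 Control, 1 CoA and 2 Corrected arrays, and the groups overlapped. Its log2 fold change was 0.29 in CoA vs Control (95% interval -0.65 to 1.24) and -0.12 in Corrected vs Control (95% interval -1.15 to 0.90). The brighter probe of CD28, the receptor for CD80 and CD86, gave 2.47, 3.73, 4.03 and 4.18 in Control, 4.27, 4.84, 3.03 and 3.76 in CoA, and 4.60, 2.68 and 4.55 in Corrected. The groups overlapped again, and the log2 fold changes were 0.37 (95% interval -0.88 to 1.62) and 0.34 (95% interval -1.01 to 1.69). The second probe of CD28 was well above background on 1 of 12 arrays only. A 2-fold rise in CoA and a 2-fold fall in Corrected lie within the intervals of both genes, so such changes were not detectable at these signals. On Corrected replicate 3 the normalized log2 signal was 5.72 for CD4 and 4.92 for CD28 (the latter not well above background), both above all Control arrays. Before normalization, neither was above the highest Control array. With this array the log2 fold change of CD4 for Corrected vs Control was 0.39.

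CD1A and CD1B varied more between samples of one group than between groups. The log2 signal of CD1B was 8.75, 11.89, 6.79 and 6.94 in Control, 6.39, 5.36, 10.24 and 7.49 in CoA, and 5.90, 6.57 and 8.27 in Corrected. Control replicate 2 and CoA replicate 3 were the brightest arrays, and the Control arrays alone spanned 5.11 on the log2 scale, from replicate 3 to replicate 2. The 5 probes of CD1B, all detected on 12 arrays, gave log2 fold changes of -1.56 to -1.09 in CoA vs Control, and of -1.93 to -1.68 in Corrected vs Control. For the brightest probe the standard errors were 1.24 and 1.34 and the unadjusted p-values 0.345 and 0.236 in limma, so the differences between groups were within the spread of the samples. Without Control replicate 2 the log2 fold changes of that probe were -0.12 in CoA vs Control and -0.58 in Corrected vs Control. Corrected replicate 3 was at 9.38, and with it the log2 fold change of Corrected vs Control was -1.06.

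CD1A had its highest signals on the same pair of arrays. They were 4.13, 6.43, 3.86 and 3.77 in Control, 4.41, 4.27, 5.57 and 4.52 in CoA, and 4.69, 4.05 and 4.58 in Corrected. Its log2 fold changes were 0.15 (standard error 0.56) and -0.11 (standard error 0.60) for CoA and Corrected vs Control, and 0.10 for the latter with Corrected replicate 3, on which CD1A was at 5.29. Over the 11 arrays, CD1A and CD1B correlated with r = 0.802, and with r = 0.870 after the group means were subtracted. CD1E and CD1C, other genes of the family, were also highest on Control replicate 2 (6.09 and 4.57) and CoA replicate 3 (5.30 and 4.04), although CD1C was well above background on 1 of 12 arrays only. CD1D, whose protein presents lipids to natural killer T cells, did not share this, with 6.21 on Control replicate 2 against 8.03 on Control replicate 4 and 8.67 on Corrected replicate 1. Whether probes of CD1A, CD1B, CD1C and CD1E also bind each other's transcripts was not tested, as probe sequences were not used here.

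**Figure D2:**
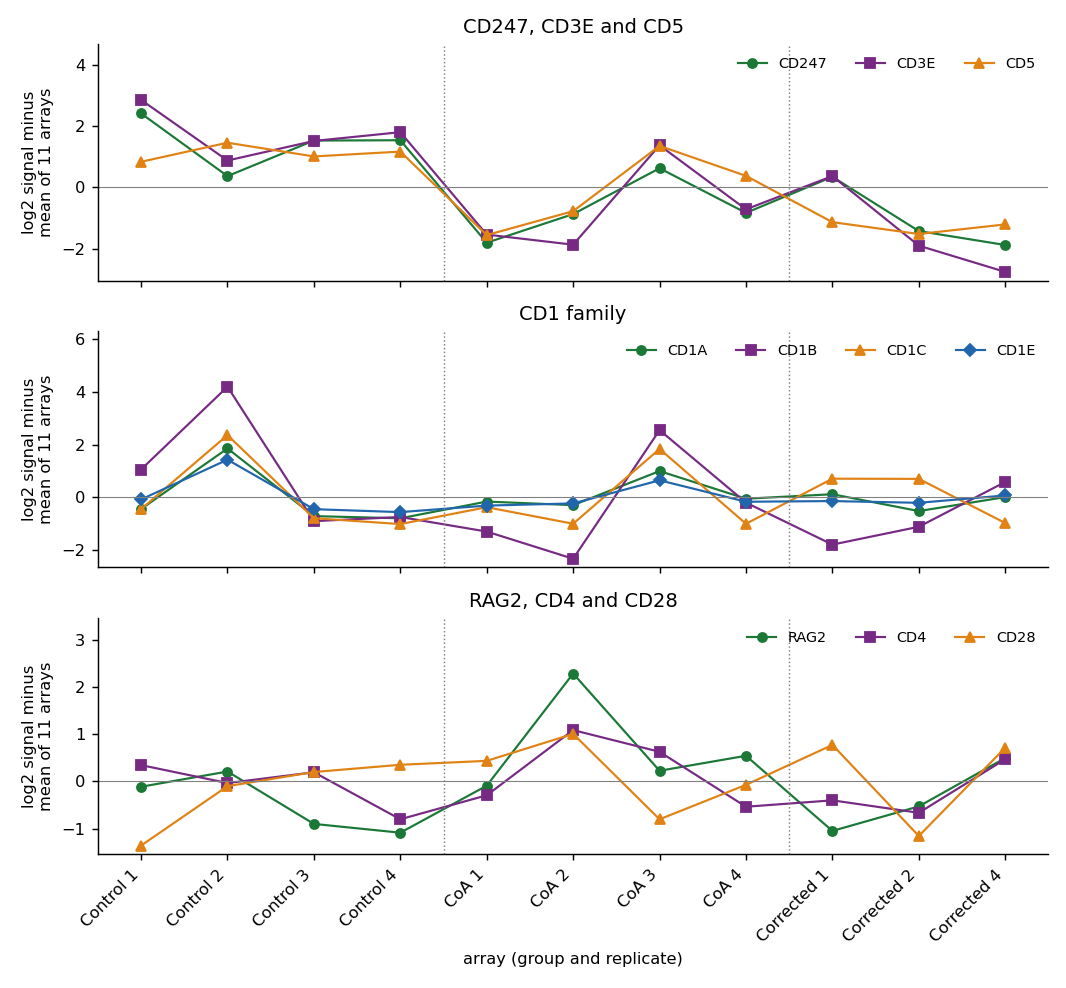
Log2 signal of each gene minus its mean over the 11 arrays (vertical axes) on each array used (horizontal axis, dotted lines between groups), with a panel for CD247, CD3E and CD5, a panel for the CD1 family and a panel for RAG2, CD4 and CD28. The first panel is highest in Control and on CoA replicate 3, the second peaks on Control replicate 2 and CoA replicate 3, and RAG2 peaks on CoA replicate 2.

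RAG2 was the only member called higher in CoA vs Control, and only by its brightest probe. This probe gave 5.26, 5.58, 4.47 and 4.29 in Control, 5.28, 7.65, 5.60 and 5.91 in CoA, and 4.32, 4.84 and 5.87 in Corrected, and was well above background on all arrays. CoA replicate 2 stood highest and CoA replicate 1 lay within the Control range, so the groups overlapped. In CoA vs Control, the log2 fold change was 1.21 (standard error 0.54, unadjusted p = 0.0475 and adjusted p = 0.348 in limma, exact permutation p = 0.057) and in Corrected vs Control it was 0.11 (standard error 0.59). The other RAG2 probes, well above background on 6 and on 3 of the 12 arrays, gave 0.50 and -0.31 for CoA vs Control, and the mean of all probes did not pass. The call was lost under 13 of 23 alternatives, among them the model without the detection filter and the model without CoA replicate 2, where the log2 fold change was 0.70. On Corrected replicate 3 the normalized signal of RAG2 was 7.51.

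**Figure D3:**
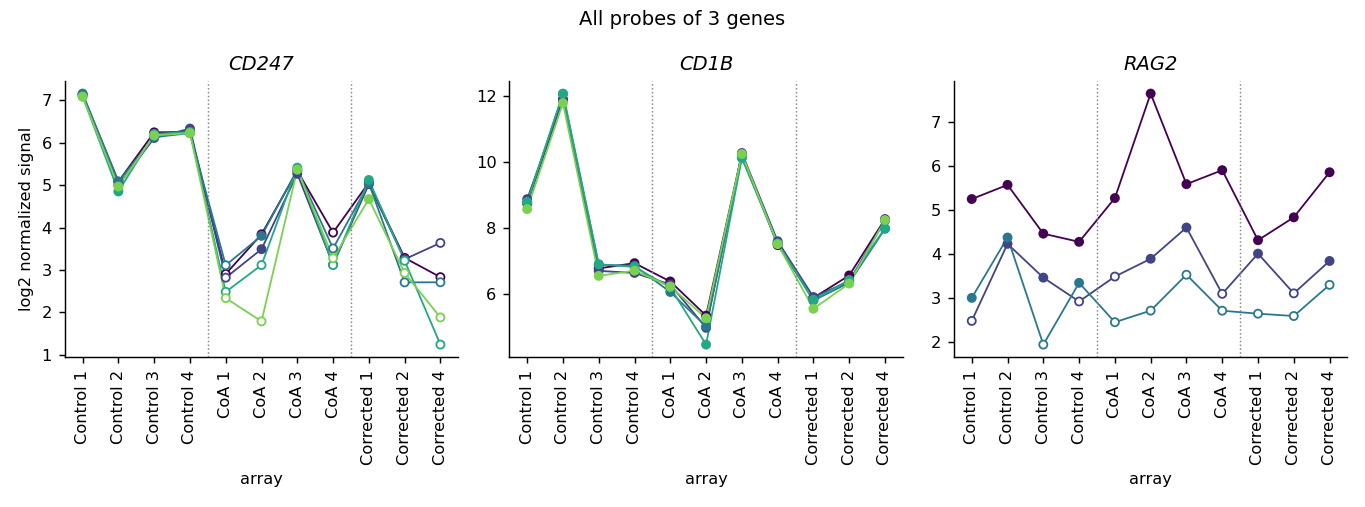
Log2 normalized signal (vertical axes) of every probe of CD247, CD1B and RAG2, 1 line per probe, on the 11 arrays used (horizontal axes, dotted lines between groups); filled circles mark a probe well above background. The 5 probes of CD1B and, in Control, the 5 of CD247 run together, whereas the RAG2 probes differ and only the brightest peaks on CoA replicate 2.

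Taken as a set of calls (at least 2-fold with an unadjusted p under 0.05), 2 of the 4 genes that passed the filter met the limit for CoA vs Control, CD5 lower and RAG2 higher, where 8.81% of all tested probes did so. For Corrected vs Control 1 of 4 met it, CD5, against 5.39% of tested probes. For CoA vs Corrected 0 of 4 did, against 2.77%, and 0 of 4 had an unadjusted p under 0.05, against 4.31%. After adjustment over all tested probes, 0 members and 0 probes in all passed a threshold of 0.05 in limma in any of these comparisons, and the smallest adjusted p of any probe was 0.217, 0.241 and 0.909. This depended on the model for CoA vs Control. With arrays weighted by their fit, 11127 probes passed, CD5 (adjusted p = 0.0335 in limma) and RAG2 (adjusted p = 0.00498) among them, and in the weighted model without the filter CD247 and CD3E passed (adjusted p = 0.00839 and 0.0153 in limma). Such weights favour arrays close to their group mean, and Control replicates 3 and 4 were nearly alike. The weighted p-values may thus rest on a pair that could be 1 sample. The weighted log2 fold change of CD1B for CoA vs Control was 0.35, against -1.22 without weights. With the scan as a random block, 869 probes and 0 members passed. No other group shares the CoA scan, so this block cannot adjust CoA vs Control for scan.

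Without the filter, the model over all probes called CD247, CD3E and CD5, all lower, so 3 of 8 genes, both for CoA vs Control, where 8.56% of probes were called and 5.23% were called lower, and for Corrected vs Control, where 5.57% were called and 3.14% called lower. These comparisons share the Control arrays, and CD247 and CD3E ran closely together (r = 0.968). The 8 genes were chosen with earlier results of these data known, so these shares do not test the set. The same 3 genes lay below all Control arrays on all 3 Corrected arrays, which held for 3.91% of probes, while 0 of 8 genes lay below all Control arrays on all CoA arrays, as 3.72% of probes did. The median log2 fold change of the 8 genes was -0.54 in CoA vs Control and -0.90 in Corrected vs Control.

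The CoA and Corrected arrays overlapped for all 8 genes (5.13% of probes did not overlap), and 0 of 8 genes were called between them without the filter, where 3.35% of probes were. The log2 fold changes of CoA vs Corrected were 0.27 (95% interval -1.27 to 1.81) for CD247, 0.74 (95% interval -1.26 to 2.74) for CD3E and 1.14 (95% interval -0.10 to 2.38) for CD5. RAG2 was 2.14-fold higher (95% interval of the log2 fold change -0.19 to 2.39). These intervals include both no difference and a more than 2-fold higher signal in CoA. The order of the group means was Control, CoA, Corrected for CD247, CD3E, CD5 and CD1B, and the CoA and Corrected means did not differ beyond their spread. With the scan that the arrays share as a random block, CD5 and RAG2 passed the limit for CoA vs Corrected. Their standard errors were 0.46 and 0.48 with the block, against 0.56 and 0.59 without it. No other group shares the CoA scan, so the block cannot separate scan from CoA and these calls do not account for scan.

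**Figure D4:**
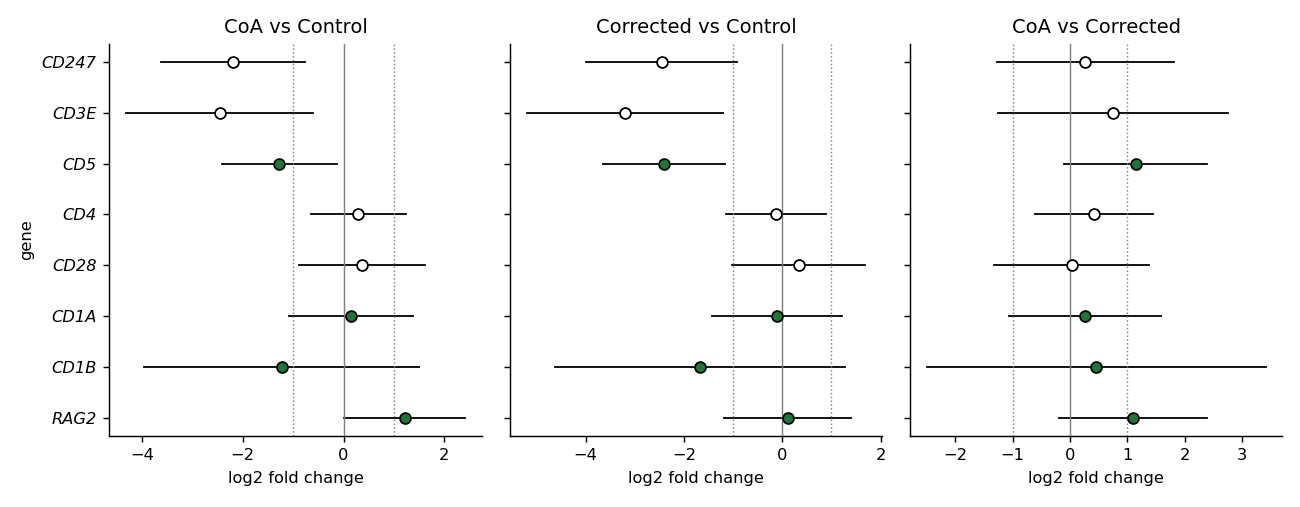
Log2 fold changes (horizontal axes) of the 8 genes by their brightest probe for the 3 comparisons, with 95% intervals of the limma model as bars and dotted lines at a 2-fold change. Filled points are genes that passed the detection filter and open points genes taken from the model over all probes; only CD247, CD3E and CD5 lie below the lower dotted line with an interval that excludes 0.

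Among the members, CD247 and CD3E moved most closely together. Their log2 signals correlated over the 11 arrays with r = 0.968, and with r = 0.931 after group means were subtracted, which describes arrays that share the same RNA and normalization. CD5 followed them less closely (r = 0.813 with CD3E and 0.771 with CD247, and 0.561 and 0.495 within groups). CD4 and CD28 did not follow the receptor chains (r of CD3E with CD4 -0.06 and with CD28 -0.42), and RAG2 ran with CD4 (r = 0.699) rather than with CD3E (r = -0.47). Of the 952 other named genes tested, those closest to the mean profile of CD247 and CD3E were AK3 (r = 0.942), PPARG (0.902), FMO4 (0.898), GCSH (0.890), CBR1 (0.887) and PRLR (0.885), over the same 11 arrays.

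Of the other T cell genes with a named probe, CD40LG met the limit without the filter and those that passed the filter did not meet it. Most listed T cell genes had no named probe and were not examined. Among these, the study names CD3G, LCK, TRAC, TRBC2, TRAT1, SKAP1, SH2D1A and IKZF3 as lower in both operated groups. It used these same arrays with probes mapped to human genes. Of 47 further T cell genes listed, 9 had a probe with a symbol, 6 passed the filter and 0 were called in any comparison, although 1 of the 6 had an unadjusted p under 0.05 for Corrected vs Control (CD80, which encodes a ligand of CD28, with a log2 fold change of 0.85). Their median log2 fold change was -0.18 in CoA vs Control and -0.21 in Corrected vs Control. IFNG, the T cell cytokine interferon gamma, had log2 fold changes of -0.58 and -0.82, and CTLA4, an inhibitory receptor of activated T cells, had 0.65 and 0.34. CD40LG, which T cells show to B cells on activation, was well above background on 4 of 12 arrays. Its log2 signal was 4.59, 3.79, 3.53 and 4.07 in Control, 1.28, 1.27, 4.45 and 2.33 in CoA, and 2.86, 1.78 and 1.28 in Corrected, with CoA replicate 3 again high. Its log2 fold changes without the filter were -1.66 and -2.02 (unadjusted p = 0.0319 and 0.0184 in limma), which met the limit in both comparisons, as CD247 and CD3E did, and it was named after its values were seen.

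Of 18 thymus genes listed, 3 had a named probe (CD1C, CD1D and CD1E), 2 passed the filter and 0 were called or had an unadjusted p under 0.05 vs Control in limma. Of 12 B cell genes and 15 genes of cell division listed, 0 had a probe with a symbol, so neither these cells nor dividing cells could be followed here.

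Genes of other cells also differed between the groups. Of 10 adipocyte genes listed, 6 had a named probe and 5 were tested. PPARG, the main regulator of fat cell formation, was called lower in CoA and in Corrected vs Control (log2 fold changes -3.17 and -2.29), and ADIPOQ, which encodes adiponectin, was called lower in CoA vs Control (-2.99) and had -1.15, not called, in Corrected vs Control. UCP1, the uncoupling protein of brown fat, was well above background on 7 of 12 arrays and had -3.09 and -2.49 without the filter. The other adipocyte genes were not called, with log2 fold changes of -1.49 and -0.60 for LPL (lipoprotein lipase), -0.86 and -0.83 for DIO2 (a deiodinase) and 0.17 and 0.26 for LEP (leptin). The mean log2 signal of the 6 adipocyte genes was 6.79 to 8.08 on the Control arrays, 4.83 to 6.64 on the CoA arrays and 5.90 to 7.38 on the Corrected arrays. It was highest in CoA on replicate 3 and highest in Corrected on replicate 1, as for CD247 and CD3E. The haemoglobin genes HBA and HBB2, 2 of 8 erythroid genes listed, were called lower in CoA vs Control (-3.37 and -1.46). In Corrected vs Control they were not called (-1.21 with standard error 0.92, and -0.17 with standard error 0.62). HBA was also called lower in CoA vs Corrected (-2.16). The erythroid genes had a mean log2 signal of 17.23 to 17.86 in Control, 13.14 to 16.63 in CoA and 16.50 to 17.62 in Corrected. The part of these cells in the T cell values was not tested.

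**Figure D5:**
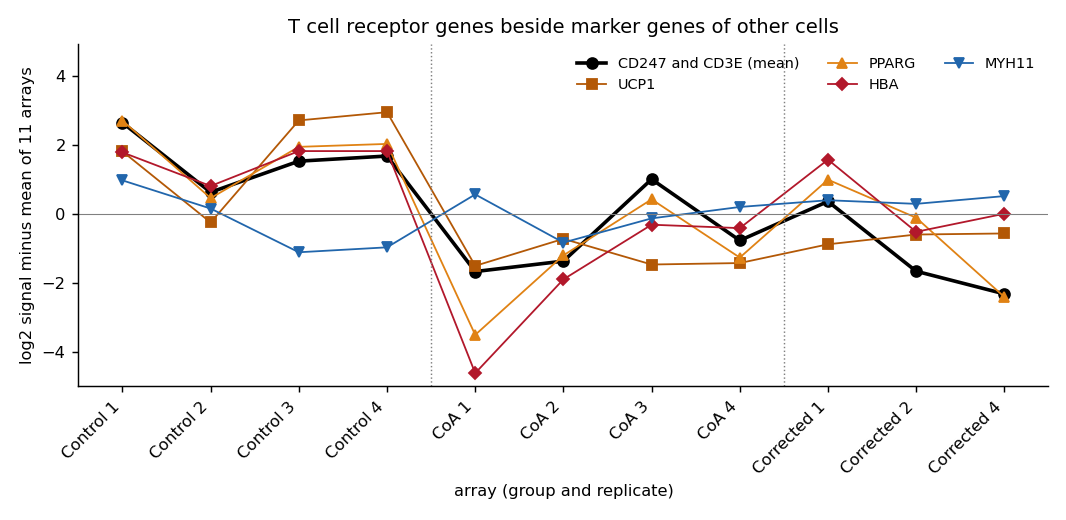
Mean log2 signal of CD247 and CD3E, and the log2 signals of UCP1, PPARG, HBA and MYH11, each minus its mean over the 11 arrays (vertical axis), on each array used (horizontal axis, dotted lines between groups). PPARG runs with CD247 and CD3E (r = 0.902), while MYH11 of smooth muscle does not share their difference between groups.

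Of the tested genes of the other lists, 0 were called lower vs Control. Of 15 genes of macrophages and dendritic cells, 4 had a named probe and were tested, and 1 was called, SPP1 (osteopontin), higher in CoA and in Corrected (log2 fold changes 2.86 and 1.95), while CD14, TLR2 and TLR4 were not called. Their mean log2 signal was 8.71 to 9.87 in Control, 9.68 to 10.3 in CoA and 9.66 to 10.07 in Corrected. Of 10 smooth muscle genes 4 were tested and 0 were called or had an unadjusted p under 0.05 vs Control, with medians of 0.17 in CoA vs Control and 0.66 in Corrected vs Control. Of 9 endothelial genes, 5 had a named probe, 4 were tested and 0 were called, 1 of them with an unadjusted p under 0.05 (SELE, 0.83 in CoA). CoA replicate 3, the CoA array with the highest CD247, CD3E, CD5 and CD40LG, had the smallest share of spots well above background of the arrays used, 55.8%.

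Arrays scanned together were unevenly spread over the groups. All 4 CoA arrays share 1 scan in the file headers and no array of another group shares it, so scan and CoA cannot be told apart. Control replicates 1, 2 and 4 share a scan with Corrected replicate 2. Within that scan, Corrected replicate 2 lay below the mean of the 3 Control arrays by a log2 difference of -2.87 for CD247, -3.75 for CD3E, -2.68 for CD5 and -2.62 for CD1B, and below the lowest of them for all 4 genes. It lay below that mean for the other members too, but inside the range of the 3 Control arrays. These differences were -0.50 for CD4, -0.79 for CD28, -0.73 for CD1A and -0.20 for RAG2. With the scan as a fixed block, Corrected vs Control rests on this 1 Corrected array, which the model assumes to vary like the arrays of the other groups. CD3E and CD5 met the limit in it (unadjusted p = 0.0456 and 0.00116 in limma) and CD247 did not (unadjusted p = 0.0579), without a replicate of the Corrected group in that scan. With Control replicates 3 and 4 counted as 1 sample, CD247 and CD3E were still called in both comparisons and CD5 in Corrected vs Control, but the CD5 and RAG2 calls for CoA vs Control were lost.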

How the data were processed

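Total RNA of 12 aortic rings was hybridised to Agilent rabbit arrays with Cy3, 1 array per ring. The authors deposited Feature Extraction output (version 11.0.1.1), in which the processed intensity is background-subtracted within each array and not normalized between arrays. Flags for outlier spots and for signals above background are deposited beside it, and the median intensity of spot and local background was deposited uncorrected. The number of arrays limits the precision, and dim probes are limited by background.

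Control spots and outlier spots were left out, spots of a probe were averaged, and log2 intensities were quantile normalized over 12 arrays, as in the study's methods. Symbols came from RefSeq accessions through the gene table of assembly mOryCun1.1 (3368 probes, 1264 symbols, 958 of them tested), and no coordinates were used. Probes detected on at least 8 of 12 arrays entered 1 limma model (limma 3.58.1, R 4.3.3) of 11 arrays, and genes that failed the filter were taken from the model without it. A call required a 2-fold change with an unadjusted two-sided p under 0.05, and adjusted p-values are Benjamini-Hochberg values over all probes of the model. The exact permutation test used the absolute difference of means, with a smallest p of 0.0286 for 4 against 4 and for 4 against 3 arrays. Python 3.11.15, numpy 2.4.6, pandas 2.3.3 and matplotlib 3.10.9 made tables and plots. Simulated data with 200 changed probes served to test the scripts.

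Alternatives were all 12 arrays, 75th percentile scaling, normalization over 11 arrays, normexp with an offset of 50 (on median intensities, since the files hold no mean), other filters, the mean of a gene's probes, only the groups compared, replicate and scan blocks, array weights, Control replicates 3 and 4 as 1 sample, and leaving out each array. The model without the filter was planned, and its combinations with the other alternatives were added after the data were seen. Named were the 8 genes, called or brightest genes of the lists (T cell, thymus, B cell, macrophage and dendritic, cell division, adipocyte, smooth muscle, endothelium, erythroid) and the 6 genes closest in profile to CD247 and CD3E. CD40LG, CD80, IFNG, CTLA4, SELE, UCP1, LPL, DIO2 and LEP were named after their values were seen. The value of 1 listed T cell gene is not reported here. The genes and lists were chosen with earlier results of these data known.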

Additional observations from a re-analysis of the deposited data

Results flagged for a closer look

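CD1A on Control replicate 2 had a log2 signal of 6.43 and stood apart from the other 3 Control arrays by Dixon's test at the 95% level. Among the Control and CoA groups of the 8 genes, 16 groups were tested at both ends and 1 was flagged, and chance alone flags about 1 in 20 groups. CD1B, CD1C and CD1E were also highest on this array.

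Corrected replicate 3, which entered no comparison, was above the highest Control array and well above background for 3 genes after normalization, with log2 values of 5.72 for CD4, 9.96 for CD5 and 7.51 for RAG2. Before normalization it was not above the highest Control array for any of them. The processed intensities were 13.2, 172 and 36.3, against Control maxima of 34.6, 502 and 74.0. The lowest normalized signal well above background on this array was 5.26, close to its CD4 value. CD28, at 4.92, was also above the highest Control array but not well above background. On this array 45.6% of spots were well above background, the lowest share of the 12 arrays.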

How the results depend on the processing

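Over 545 alternative values of single genes, 470 kept direction and call, 28 lost the call, 6 gained it and 41 changed sign, and 0 of the values that changed sign had been called. Most of these values belong to results that had no call to lose. In CoA vs Control, the call was lost under 13 of 23 alternatives for RAG2 and under 9 of 23 for CD5. CD247 and CD3E kept their calls vs Control under every alternative except normexp and, for CD247 in Corrected, the scan as a fixed block. No probe of CD247, CD3E, CD4 or CD28 passed the detection filter, so their values are limited by background, and the cause of each lost call was not tested.

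With the filter, 2 genes were called for CoA vs Control, against 0 with all 12 arrays, normexp, only the groups compared, or Control replicates 3 and 4 as 1 sample, 1 with 75th percentile scaling or the mean of probes, and 0 to 2 when arrays were left out. For Corrected vs Control, 1 gene was called, against 0 with all 12 arrays and 3 without the filter. For CoA vs Corrected, 0 were called, against 2 with the scan as a random block and 0 to 2 when arrays were left out (2 when CoA replicate 1, and 1 when CoA replicate 2 or Corrected replicate 4, was left out). Without the filter, normexp called 0 genes in CoA vs Control and 1 in Corrected vs Control, in place of 3. For CoA vs Corrected, the scan as a random block called 1 and leaving out arrays 0 to 1. The random block cannot separate scan from CoA.

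Sign changes, as log2 fold changes, were as follows. For CD1A they were -0.019 (normexp) and -0.10 (Control 3 and 4 as 1 sample) in CoA vs Control, and 0.10 (all 12 arrays), 0.026 (75th percentile) and 0.55 (array weights) in Corrected vs Control. For CD1B they were 0.35 in CoA vs Control (array weights) and -0.16 in CoA vs Corrected (all 12 arrays). For CD247 it was -0.29 in CoA vs Corrected (array weights). For CD28 in CoA vs Corrected they were -0.21 (all 12 arrays), -0.079 (75th percentile), -0.046 (normexp), -0.15 (mean of probes), -0.0028 (random scan block) and -0.14 (array weights), with -0.078 in CoA vs Control (array weights) and -0.79 in Corrected vs Control (fixed scan block). For CD4 with all 12 arrays they were -0.10 in CoA vs Corrected and 0.39 in Corrected vs Control. For RAG2 in Corrected vs Control they were -0.062 (Control 3 and 4 as 1 sample) and -0.20 (fixed scan block).

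Leaving out arrays gave -2.64 to -1.83 for CD247, -3.14 to -2.06 for CD3E and 0.70 to 1.49 for RAG2 and -2.18 to -0.12 for CD1B in CoA vs Control, and -3.12 to -2.01 for CD247, -4.10 to -2.53 for CD3E -2.51 to -2.29 for CD5 and -2.36 to -0.58 for CD1B in Corrected vs Control. The values of CD1B nearest 0 are those without Control replicate 2. Ranges with a sign change were -0.15 to 0.77 (CoA vs Control), -0.038 to 0.39 (CoA vs Corrected) and -0.37 to 0.52 (Corrected vs Control) for CD1A, -0.50 to 1.14 for CD1B and -0.18 to 0.93 for CD247 in CoA vs Corrected, -0.0082 to 0.68, -0.60 to 0.36 and -0.039 to 0.97 for CD28, -0.46 to 0.11 for CD4 and -0.32 to 0.46 for RAG2 in Corrected vs Control.

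Replicate numbers did not pair the samples. Over 10 same-numbered pairs of arrays in different groups, the correlation of deviations from group means was -0.44 to 0.45, with 2 over 0.1, and 4 of 11 arrays correlated best with their own number. With the replicate number as a block, 2, 1 and 0 genes were called in the 3 comparisons (CoA and Corrected vs Control, then CoA vs Corrected), as without the block, and RAG2 in Corrected vs Control was -0.045.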
